A study of Schizosaccharomyces pombe with 2 samples.

Results

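The cytosolic ribosomal protein genes of fission yeast were described from the genome annotation deposited with the series. A gene was taken as a member when its coding span on chromosomes 1 to 3 carried an alias of rpl (60S subunit) or rps (40S subunit) followed by a digit, which leaves out the mitochondrial mrpl and mrps genes. This gave 133 members, 78 rpl and 55 rps genes, among 5121 protein-coding genes, and the comparison set was the remaining 4988 coding genes. The series holds 2 ChIP-seq libraries of H3K9me2, the heterochromatin mark placed by Clr4, replicates 1 and 2 of a swi6Δ strain grown in YES medium. Swi6 is the fission yeast HP1 protein, and no library of a strain with Swi6 was used here. The deposited file gives positions of annotated features with an empty score column on every line, so it holds no read count or enrichment, and library depth was not given in the sources used here. The values below are therefore a census of annotated genes with no replicates, and no test was run.

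A ribosome is built from ribosomal RNA and many small proteins, of which the rpl products belong to the large 60S subunit and the rps products to the small 40S subunit. These proteins are needed in roughly equal amounts, and in growing yeast their genes are among the most strongly transcribed by RNA polymerase II. In fission yeast many of their promoters carry the HomolD box, which takes the place of a TATA element, and the HomolE box upstream of it.

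The promoter was read from the genome as 250 bases before to 50 bases from the annotated mRNA start on. The letters searched were CAGTCACA for HomolD, ACCCTACC for HomolE and TATAAA for a TATA element, each as an exact match on both strands, and none of these 3 motifs contains another. The following stretches show HomolD in capitals, in sense direction of the gene (a box read on the other strand appears as TGTGACTG), for members with the names rpl7, rpl8, rpl16 and rps4, which stand on 3 or 4 genes each, and for neighbouring genes. Coordinates are those of the deposited annotation, whose chromosome lengths equal those of the ASM294v3 assembly from which the bases were read.
rpl701 at chr2:1792293-1792322, minus strand: aactaaaggaaCAGTCACAaatttgtgtcg
rpl702 at chr1:3430803-3430832, minus strand: ggttgtaaagaCAGTCACAagatgtaaact
rpl703 at chr1:1712727-1712756, plus strand: gtgtcttaaagCAGTCACAtttcatagcta
rpl801 at chr1:4251477-4251506, minus strand: atgaccgaaaaCAGTCACAttttacaacaa
rpl803 at chr2:601191-601220, plus strand: ggtcgttaaagCAGTCACAtgtacactgtt
rpl1602 at chr1:4097266-4097295, plus strand: ttcaaaaaaagCAGTCACAtctttaacaac
rps401 at chr2:3245072-3245101, plus strand: tctatacaaagCAGTCACAtcttttgacac
rps403 at chr1:3399183-3399212, plus strand: gacgaaaaaggCAGTCACAattatttgctt
rps1402 at chr2:1792267-1792296, plus strand: tttcccatgagCAGTCACAaaagtttcgac
rpl35 at chr3:89621-89650, minus strand: acttgcactagTGTGACTGcttttctttgg
rpl902 at chr3:89621-89650, plus strand: ccaaagaaaagCAGTCACActagtgcaagt
The last 2 lines are the same 30 bases read on opposite strands, because the divergent genes rpl35 and rpl902 have this box between them.

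Exact HomolD letters were found in the window of 74 of 133 members (55.6%), against 52 of the 4988 other coding genes (1.04%). Of the rpl genes 45 of 78 had it (57.7%) and of the rps genes 29 of 55 (52.7%). HomolE was found at 38 members (28.6%), against 41 other coding genes (0.822%). TATAAA was found at 48 members (36.1%) against 2506 other coding genes (50.2%). None of the 31 mitochondrial ribosomal protein genes named mrpl or mrps had HomolD, and 1 of them had HomolE. The 8th base of the box varied among members: 107 members (80.5%) held the first 7 letters, CAGTCAC, against 125 other coding genes (2.51%), and the base that followed was A in 74, G in 24, T in 8 and C in 1 of these members. The 7-letter search, whose letters are part of the 8-letter one, was chosen after the data were seen.

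The window ends 50 bases into the mRNA, so boxes further downstream do not count in it. In the 71 members with the box in the window and an annotated 5′ UTR, the first base of the box lay a median of 13 bases before the annotated mRNA start, in 70 of them between 70 bases before and 40 bases after it. The exception, rps2202, had it 242 bases before the start of its mRNA line, but a further 5′ UTR part of rps2202 is annotated upstream of that line, and from its outer end the box lay at 34 bases. In 51 of the 71 the box began before the annotated start and in the other 20 at or after it. A further 11 members had HomolD only in the 300 bases before the start codon, from 48 bases after the annotated mRNA start in rps601 to 239 bases after it in rpl1801, and their 5′ UTRs were 116 to 304 bases long. Measured from the start codon, 85 members had HomolD in the 300 bases before it, at a median of 72 bases with quartiles of 64 and 79 bases, and 82 of these boxes began within 100 bases of the start codon. The 3 exceptions were rpl3002 at 124 bases, rpl902 at 148 bases and rps2202 at 251 bases, and rps2202, for protein S22 of the small subunit, is also 1 of 2 members with an intron in the 5′ UTR. Of the 40 other coding genes with HomolD in the same 300 bases, 16 had it within 100 bases and the median was 124 bases. The box read in gene direction in 52 members and on the opposite strand in 22.

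**Figure D1:**
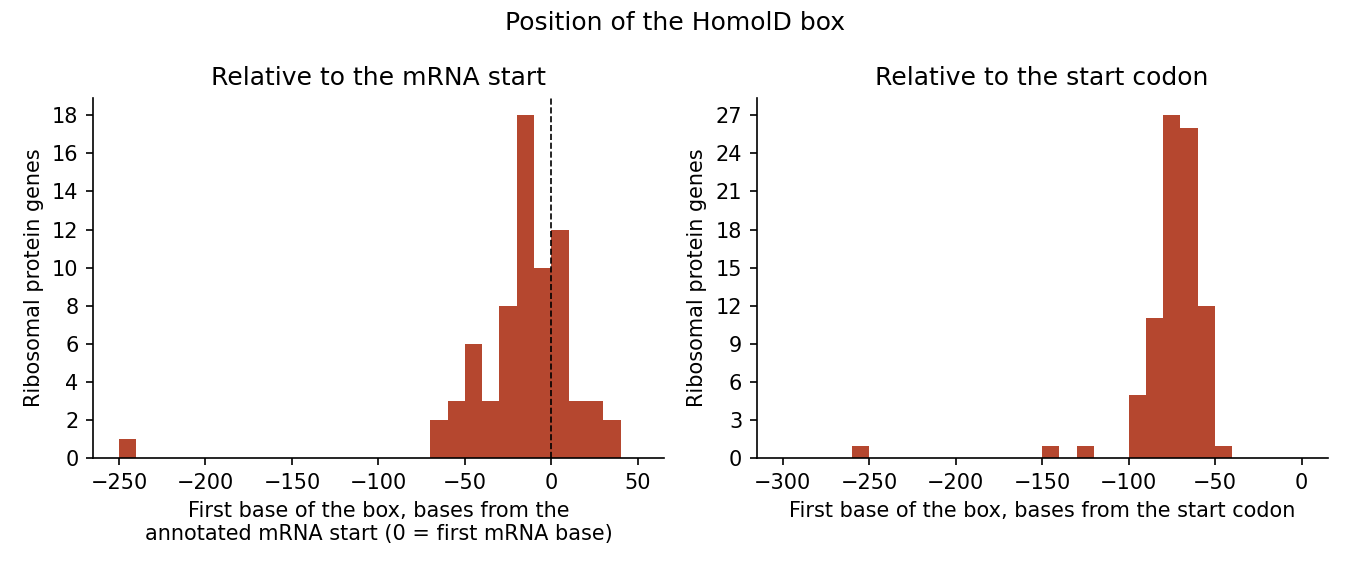
Number of ribosomal protein genes by the position of the first base of HomolD, in bases from the annotated mRNA start (left, 71 genes with a 5′ UTR) and from the start codon (right, 85 genes), in bins of 10 bases. Boxes in the left panel could lie only within the window from 250 bases before to 50 bases after the start, and the one at 242 bases before it is rps2202, whose mRNA line leaves out a 5′ UTR part; in the right panel 82 of 85 boxes lie within 100 bases of the start codon.

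In 21 members (15.8%) both boxes were found in the window, against 6 of the 4988 other coding genes (0.120%). HomolE lay on the 5′ side of HomolD in all 21 members, with a median of 12 bases between the boxes and a range of 0 to 22. The boxes had the same orientation in 17 of the 21. The stretches below show both boxes in capitals, for a member of the rpl801 to rpl803 group, for a gene beside another member, and for rpl1201 and rps21, chosen after their values were seen because the boxes touch.
rpl803 at chr2:601181-601209, plus strand: ACCCTACCctggtcgttaaagCAGTCACA
rps2 at chr3:2096075-2096104, minus strand: ACCCTACCctaatgagcccaaaCAGTCACA
rpl1201 at chr3:691697-691712, minus strand: GGTAGGGTTGTGACTG
rps21 at chr2:2083794-2083809, plus strand: GGTAGGGTTGTGACTG
In rpl1201 and rps21, which encode the stalk-base protein L12 and the small subunit protein S21, the joined boxes spell the same 16 bases on the strand opposite to the search letters. The widest spacing was 22 bases, at rpl101.

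A HomolD box upstream of a member can also lie in the window of the gene on its other side. Of the 52 other coding genes with HomolD, 15 were divergently oriented from a member, and for 13 the box was the member's own. These pairs include rpl702 with pol1 (DNA polymerase alpha), rpl1101 with smb1 (an Sm protein of the spliceosome), rps2801 with his1 (histidine synthesis) and rpl14 with uep1, whose product is a ubiquitin fusion with a ribosomal protein. Of the 37 other coding genes with HomolD that were not divergent from a member, 12 had a product that names translation or the ribosome. They include the EF-1 alpha genes tef102, ef1a-a and ef1a-c and the eEF3 gene tef3. Counted by their wording alone are the mitochondrial release factor mug82 and a translationally controlled tumor protein homolog. The rest included met14, sam1 and gdh1 of metabolism, but also the RACK1 gene cpc2 and the ubiquitin fusion gene SPAC589.10c, whose product wording was not matched. Of these 37, 1 (tef102) has a member, rpl1602, as an adjacent coding gene. The annotation itself marks 36 HomolD and 21 HomolE boxes. Of these, 30 HomolD lines lay in a member's window, and 52 members had the HomolD letters without such a line.

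Most ribosomal proteins had a pair of genes. By name the 133 members fell into 72 proteins, 41 of the large and 31 of the small subunit. Of these, 18 had 1 gene, 48 had 2, 5 had 3 and 1 had 4. The rps names ran from 0 to 30 without a gap, while the rpl names ran from 1 to 44 with 2, 33 and 40 not used. Beside rpl8 stand rpl801, rpl802 and rpl803, which the annotation pairs with other S. cerevisiae orthologs than rpl8.

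**Figure D2:**
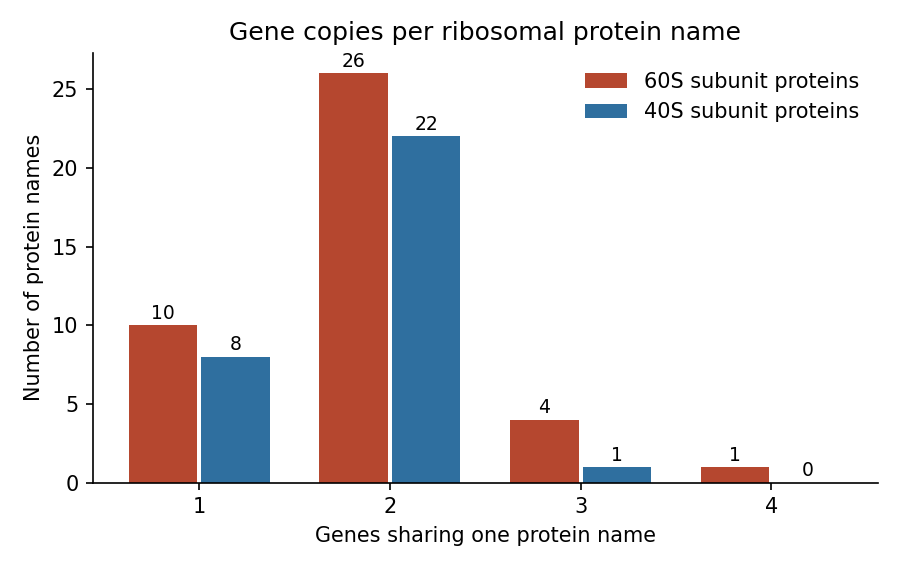
Number of protein names (vertical axis) with 1, 2, 3 or 4 genes (horizontal axis), for 60S proteins (left bar of each pair, red) and 40S proteins (right bar, blue), before names are checked against protein identity. The 2-gene class is the largest in both subunits, with 26 and 22 names.

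The translated coding sequences split 4 of the names. The product of rpl8, annotated as L7a/L8, shared 17.7% of aligned residues with each of rpl801, rpl802 and rpl803. The exit-tunnel protein L35, from rpl35, shared 16.7% with the product of rpl35a and 19.8% with that of rpl35b, which are annotated as L35a. The 192-residue product of rpl2403 shared 26.0% with the 149-residue products of rpl24 and rpl2402. The product of rpl703 shared 55.4% with that of rpl701 and 52.8% with that of rpl702. Grouped at 60% identity the members formed 76 families, 22 with 1 gene, 51 with 2 and 3 with 3, the last being rpl801 to rpl803, rpl1601 to rpl1603 and rps401 to rps403. No family joined 2 names.

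Within families the 60 paralog pairs had a median protein identity of 97.9%, and 41 pairs reached 95%. The least alike were rpl3001 and rpl3002 at 79.5%, rps001 and rps002 at 79.9%, and rps1201 and rps1202 at 81.8%. In 16 pairs the proteins were identical, among them all 3 pairs of the rpl801 to rpl803 group and the L41 pair of 25 residues. None of these 16 had identical coding sequences: 0.402% to 18.4% of coding bases differed, with a median of 8.73%. The low end was rpl1201 and rpl1202, which differed at 2 of 498 coding bases, and the high end was rps2801 and rps2802 at 38 of 207 bases. The 3 rps4 genes encoded proteins at 98.9% to 99.6% identity while 68 to 100 of their 789 coding bases differed. In the rpl16 group, rpl1603 stood apart, at 84.8% from rpl1601 and 86.3% from rpl1602, against 96.4% between rpl1601 and rpl1602.

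Against the orthologs noted in the annotation for S. cerevisiae, 39 of the 76 families had 2 genes in both yeasts. In 13 families 1 gene here faced 2 there, and in 11 families 2 genes here faced 1 there. Families of 2 genes here and 1 there include rpl301 and rpl302, for L3 at the peptidyl transferase centre, and rpl1001 and rpl1002, for L10, a late-joining protein of the 60S subunit. All 3 families with 3 genes here had 2 there. For 75 of the 76 families an ortholog was noted, the exception being rpl44. The notes do not separate all split names: rpl703 carries the same orthologs as rpl701 and rpl702, and rpl2403 the same as rpl24 and rpl2402, so these orthologs count for both families.

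The members lay on all 3 chromosomes. Chromosome 1 held 60 members (45.1%), chromosome 2 held 48 (36.1%) and chromosome 3 held 25 (18.8%), against 45.6%, 36.5% and 17.9% of the other coding genes on the same chromosomes. Density was 1.08, 1.06 and 1.02 members per 100 kb. The plus strand held 68 members (51.1%), against 49.6% of the other coding genes. Of the 60 paralog pairs, 19 shared a chromosome (31.7%), and the share over all pairs of members was not computed. Among these 19 the closest were rpl1201 and rpl1202 at 63.3 kb.

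A coding intron, a gap between consecutive coding parts, was present in 68 of 133 members (51.1%), against 2320 of the 4988 other coding genes (46.5%), a share close to that background. Among genes with under 600 coding bases the shares were 59 of 98 members (60.2%) and 497 of 961 other coding genes (51.7%). The number of introns per gene was low. A single intron was found in 58 of the 68 intron-containing members (85.3%), against 1007 of 2320 other coding genes (43.4%). In mitochondrial ribosomal protein genes the share was 7 of 13 (53.8%). Intron number was not compared at equal coding length, and member coding sequences are shorter. With 2 coding introns there were 9 members, rpl22, rpl2403, rpl3801, rpl3802, rps27, rps29, rps2501, rps2502 and rps3002, and rps13, for a small subunit protein, had 3. Introns in a UTR were annotated in the 5′ UTR of rps2202 and rps2502 and in the 3′ UTR of rpl39.

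The 79 coding introns of members had a median length of 81 bases, from 38 bases in rps27 to 441 bases in rpl701, against a median of 55 bases over 4985 introns of other coding genes. Introns of at least 200 bases made up 17 of 79 (21.5%) in members and 295 of 4985 (5.92%) in other coding genes. The longest were in rpl701 (441 bases) and rpl702 (291 bases). In 3 members the intron holds an annotated RNA gene on the same strand: the rpl701 intron holds the 78-base snoRNA snoR39b, the 217-base intron of rpl703 holds the 76-base snoR39a, and the 252-base intron of rps3 holds a 75-base noncoding RNA. snoRNAs of this kind guide the modification of ribosomal RNA.

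The first intron followed a median of 73.5 coding bases in members and 111 in other coding genes. As a share of the coding sequence, which is shorter in members, its place was a median of 18.0% in members and 11.1% in other coding genes. In mitochondrial ribosomal protein genes the medians were 74 bases and 17.0%. In 9 of 68 members (13.2%), against 37 of 2320 other coding genes (1.59%), the first intron came within 3 coding bases, right after the start codon. Examples were rpl8, both rpl18 genes, both rpl38 genes and both rps25 genes. Introns between codons were 42 of 79 (53.2%) in members and 2060 of 4985 (41.3%) in other coding genes. The first 6 intron bases were GTAAGT in 39 of 79 member introns (49.4%) and GTATGT in 24 (30.4%), against 27.0% and 19.8% of the introns of at least 20 bases in other coding genes. The intron ended in TAG in 70 of 79 (88.6%), against 68.1%.

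**Figure D3:**
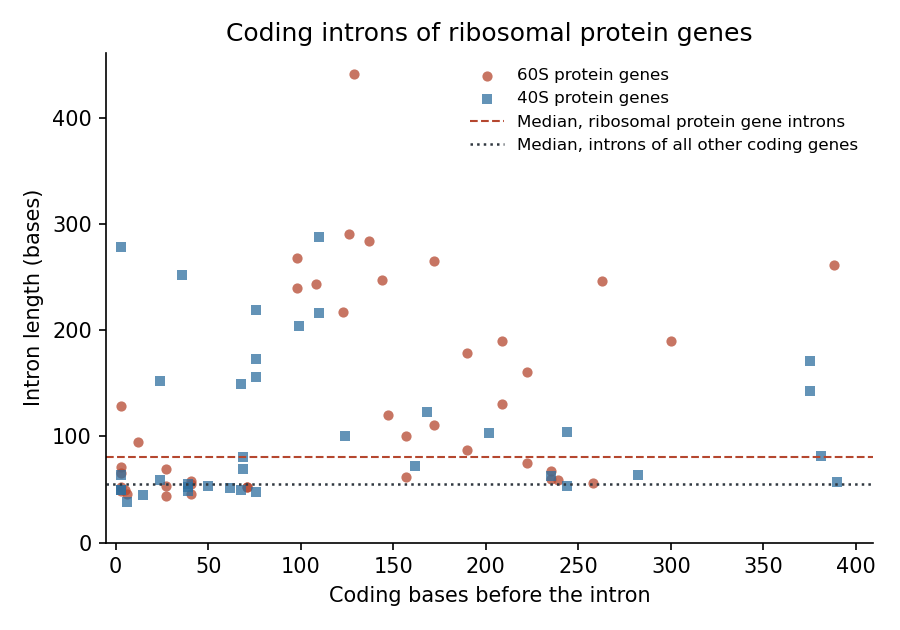
Length in bases of each of the 79 coding introns (vertical axis) against the coding bases before it (horizontal axis), for 60S (red circles) and 40S (blue squares) protein genes. The dashed line is the median of members, 81 bases, and the dotted line the median of all other coding genes, 55 bases; the rpl701 intron of 441 bases is the topmost point.

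Where paralogs had introns, these mostly lay at the same place. Of the 60 pairs, 29 had no coding intron in either copy and 26 had one in both, and in 25 of these 26 every intron fell at the same alignment column and codon phase. The exception was rps3001 and rps3002, which shared 1 place while rps3002 had a further intron. In 5 pairs only 1 copy had an intron: rpl102, rpl1202, rps001, rps901 and rps2602 had it, and rpl101, rpl1201, rps002, rps902 and rps2601 did not. Even rpl703, set apart by its protein, had its intron at the place shared by rpl701 and rpl702. Lengths differed: the first introns of the 26 pairs differed by a median of 28 bases.

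Coding sequences of members were short, with a median of 450 bases (quartiles 369 and 603) against 1161 bases (699 and 1776) in other coding genes. In 131 of 133 members the coding length was under the median of the other genes. The longest were rpl301 and rpl302 at 1167 bases, the only members above that median, followed by rpl401 and rpl402 at 1092 bases and rpl501 and rpl502, for the 5S RNA binding protein L5, at 885 bases. The shortest were rpl4101 and rpl4102 at 78 bases and rpl39 at 156 bases. Mitochondrial ribosomal protein genes had a median of 474 bases. In 46 of 60 paralog pairs both copies had the same length, and the largest difference was 24 bases.

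Both UTRs were also short. The 129 members with an annotated 5′ UTR had a median of 69 bases (quartiles 46 and 93), against 179 bases (93 and 338) in 4562 other coding genes, and 106 of the 129 (82.2%) were under 100 bases, against 27.4%. The 5′ UTR exceeded 200 bases in 7 members, with rps101 at 884 bases, rpl1801 at 304 bases and rps2201 at 265 bases as the longest. It was shortest in rpl4302 (10 bases), rps3 (14 bases) and rps901 (15 bases), and for 4 members, rpl8, rpl29 and rpl1802 among them, none was annotated, so their promoter window was set from the start codon.

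The 3′ UTR was annotated in all 133 members, with a median of 125 bases (quartiles 80 and 167), against 269 bases (154 and 475) in 4612 other coding genes. The longest were rpl1603 at 2033 bases, rps601 at 530 bases and rpl2403 at 411 bases, and the shortest rps1602 and rps23 at 29 bases and rpl502 at 36 bases. The mRNA of rpl1603 overlapped that of its opposite-strand neighbour apl1 over 2726 bases and covered coding sequence of it. Where the next gene on the 3′ side was convergent, annotated mRNAs overlapped in 29 of 72 members (40.3%), against 1809 of 2738 other coding genes (66.1%).

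Short UTRs were also seen at short coding length: among genes with under 600 coding bases the median 5′ UTR was 68 bases in members and 150 bases in other coding genes, and the median 3′ UTR was 126 bases in members and 340 bases in other coding genes. In mitochondrial ribosomal protein genes the medians were 168 bases for the 5′ UTR and 259 bases for the 3′ UTR. Paralogs differed in UTR length. The 5′ UTR of the 2 copies differed by a median of 28.5 bases over 58 pairs and the 3′ UTR by 82.5 bases over 60 pairs. The extremes were rps101 (884 bases) against rps102 (45 bases) in the 5′ UTR, and rpl1603 (2033 bases) against rpl1601 (77 bases) in the 3′ UTR.

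**Figure D4:**
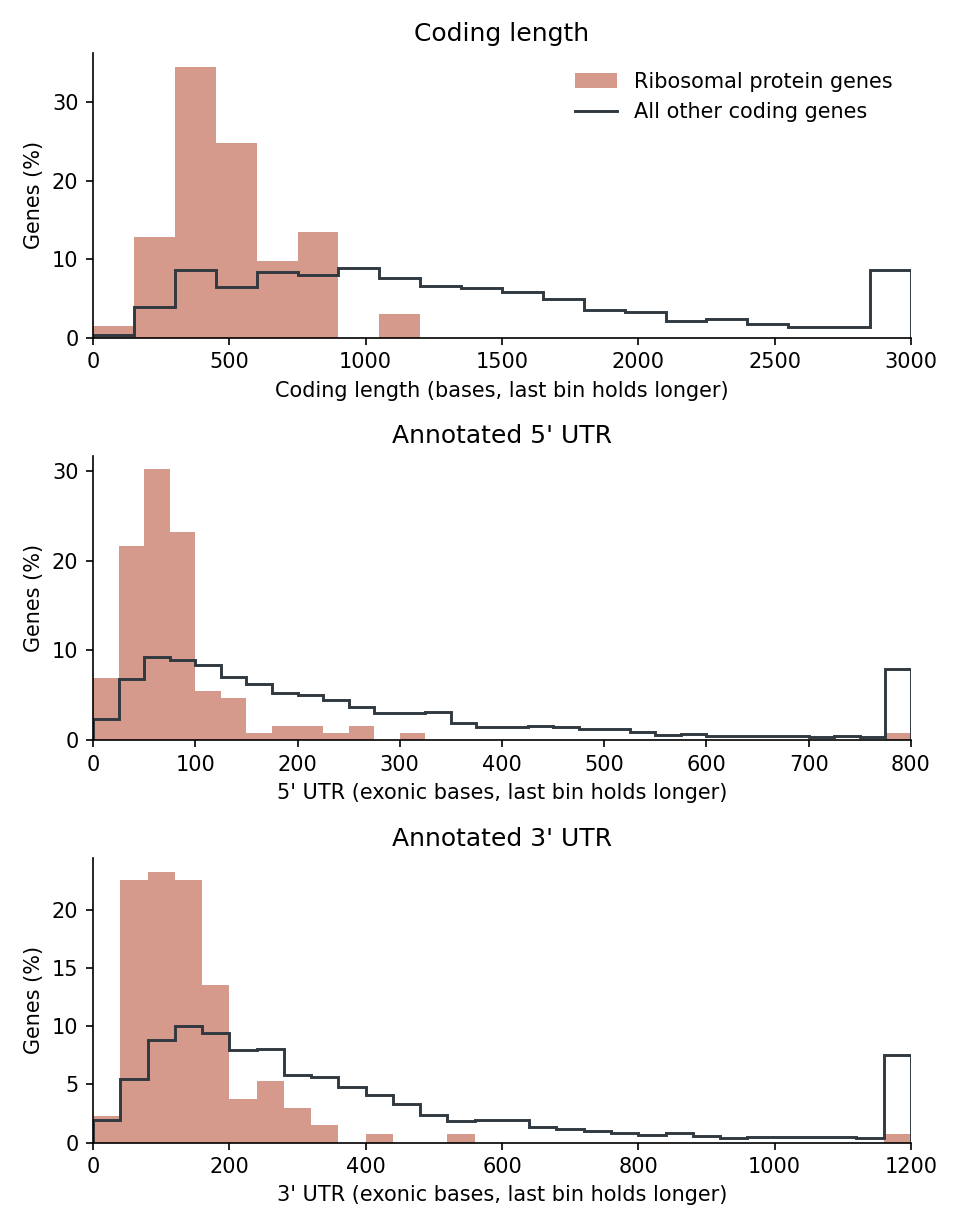
Percentage of genes (vertical axes) by coding length, annotated 5′ UTR and annotated 3′ UTR in bases (horizontal axes), for ribosomal protein genes (filled) and all other coding genes (line); the last bin collects longer values. Members concentrate at the left of each panel, with medians of 450, 69 and 125 bases against 1161, 179 and 269 bases.

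Paralogs also differed in their promoter letters. Both copies had the exact HomolD box in 16 of 60 pairs, 1 copy only in 34 and neither in 10. In the 300 bases before the start codon the exact box was in both copies of 20 pairs, in 1 copy of 36 and in neither of 4, and with the 7 letters CAGTCAC at the mRNA start these counts were 37, 21 and 2. The 7 letters stood in the 300 bases before the start codon in 122 of 133 members (91.7%), against 99 of 4988 other coding genes (1.98%). Pairs were not counted at this last setting.

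Codons ending in G or C were more frequent in members. The median share of codons ending in G or C was 47.0% in members, against 32.7% in other coding genes and 32.4% in mitochondrial ribosomal protein genes. Lysine was written AAG in 82.1% of 2224 codons in members, against 36.8% in other coding genes. Asparagine was written AAC in 71.1%, against 33.7%, and phenylalanine TTC in 64.7%, against 27.9%. Arginine was CGT in 69.1% of codons, against 30.2%, and CGG in 0.238%, against 6.28%. Glycine was GGT in 65.8%, against 41.5%, and GGG in 0.507%, against 9.27%. Alanine was GCT in 62.2%, against 47.1%, GCC in 30.4%, against 17.8%, and GCG in 0.660%, against 8.88%. Of 18 amino acids with more than 1 codon, 8 had another most-used codon in members than elsewhere. Among the 9 amino acids with a pair of codons, glutamine alone had a lower share of the codon ending in G or C, with CAG at 15.3% in members and 28.7% in other coding genes. Stop codons were TAA in 104 members (78.2%), TAG in 28 (21.1%) and TGA in 1 (0.752%). In other coding genes the shares were 58.5%, 20.8% and 20.7%.

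**Figure D5:**
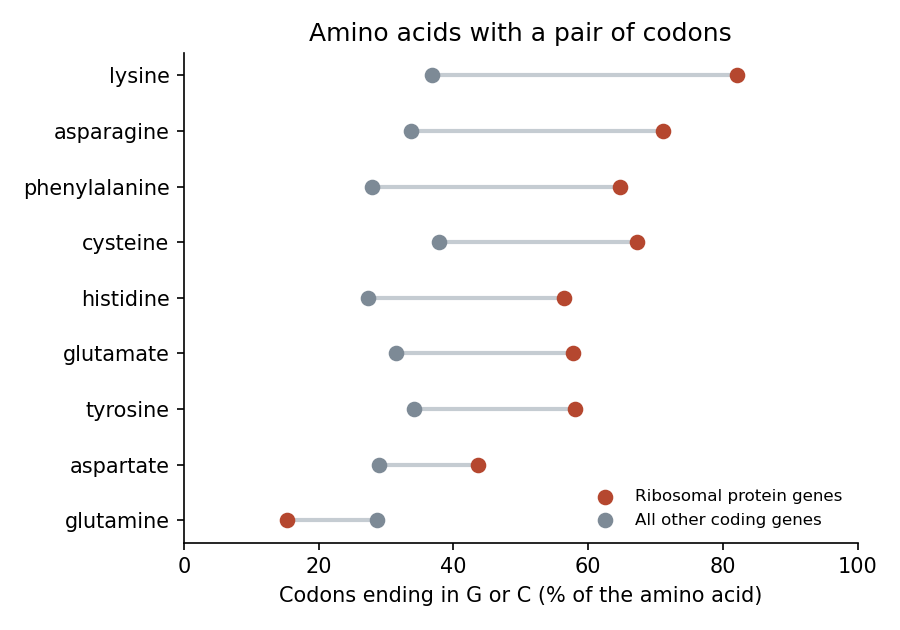
Share in percent of the codon ending in G or C (horizontal axis) for each amino acid with a pair of codons (vertical axis), in ribosomal protein genes (red points) and all other coding genes (grey points). Red lies right of grey for every amino acid plotted except glutamine, and the widest gap is at lysine, 82.1% against 36.8%.

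The proteins were rich in basic residues, which meet the phosphate backbone of ribosomal RNA. Lysine and arginine made up a median of 19.6% of residues in members, against 11.3% in other coding genes and 17.3% in mitochondrial ribosomal proteins, and 129 of 133 members were above the median of other genes. The share ran from 9.46% in rps1202 to 68.0% in rpl4101 and rpl4102, where 17 of 25 residues are lysine or arginine.

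The annotation carries curated notes on deletion strains. Of 132 members with a single such note 21 were inviable (15.9%), against 1242 of 4720 other coding genes (26.3%). Copies were counted here in the families grouped by protein identity, not by name. By this count, 12 of 22 members without a further copy were inviable (54.5%), against 9 of 110 with 1 or 2 further copies (8.18%). The 12 include rpl8, rpl35, rpl703 and rpl2403, which share a name with other members and are single-copy only by identity. The product of rpl703 shared 55.4% of aligned residues with that of rpl701 and 52.8% with that of rpl702. Shares with copies counted by name were not computed. The single-copy inviable genes include rps2, rps3, rps13 and rps20 of the small subunit and rpl13, rpl31 and rpl35 of the large. The single-copy viable genes include rpl22, rpl29 and rpl39. Where both copies exist and 1 was inviable, the other was noted viable, as for rpl301 (inviable) and rpl302 (viable) and for rps1601 (inviable) and rps1602 (viable), except for rpl2302, whose paralog rpl2301 had no note. Of mitochondrial ribosomal protein genes 29 of 31 were inviable.

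Among the 5118 pairs of adjacent coding genes, 9 were pairs of members, involving 16 of 133 members (12.0%), and none joined paralogs. The share expected without any arrangement of the genes was not computed. Divergent pairs were rps1602 with rpl13 (146 bases between coding spans), rpl701 with rps1402 (168 bases), rpl35 with rpl902 (222 bases) and rps2 with rps20 (569 bases). Tandem pairs were rps403 with rpl2102, rps29 with rps27, rpl13 with rpl703, and rps1402 with rps1601, and rps001 and rpl2701 were convergent. The trios rps1602, rpl13, rpl703 on chromosome 1 and rpl701, rps1402, rps1601 on chromosome 2 each have a gene of the rpl7 name and one of the rps16 name at their ends. Both windows of rpl701 and rps1402 hold the same 2 HomolD boxes, at chr2:1792278-1792285 and chr2:1792304-1792311. The next coding gene on the 5′ side of a member was a median of 675 bases away from coding span to coding span, against 891 bases for other coding genes, and it was divergent for 54.1% of members and 55.0% of others. Where it was divergent the medians were 607 bases in members and 1026 bases in others, and where it was tandem 706 and 744 bases.

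The study concerns heterochromatin, so the distance of members to the centromere repeats and chromosome ends was measured. A chromosome end here is the end of the assembled sequence, whether or not heterochromatin lies there. The distance to the silent mating type locus, which the paper also counts as constitutive heterochromatin, was not measured. Within 100 kb of a centromere repeat span or a chromosome end lay 12 of 133 members (9.02%), against 440 of 4988 other coding genes (8.82%). Of the 12, 10 were near a centromere and 2 near a chromosome end, and these parts went opposite ways. Near a centromere lay 7.52% of members, against 253 of 4988 other coding genes (5.07%). Near a chromosome end the 2 of 133 members were a lower share than the 187 of 4988 other coding genes (3.75%). The member counts are small and these differences were not tested. The nearest to a centromere were rps402, at 6.28 kb from the repeats of centromere 2 and the 4th coding gene on that side, rpl1002, at 8.86 kb from those of centromere 1 and the 2nd coding gene, and rpl42, at 30.7 kb from those of centromere 1. No member lay within 50 kb of a chromosome end, where 85 other coding genes (1.70%) did. The nearest were rpl35 at 88.9 kb, its neighbour rpl902 at 89.8 kb, and rpl2402 at 138 kb, all on chromosome 3. The telomere profiles shown in the paper are of chromosomes 1 and 2. Whether H3K9me2 reached these genes in swi6Δ cells was not analysed here, since the deposited file holds no signal.

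The same values were taken for other ribosome genes outside the alias rule, from a list of the stalk proteins, the ubiquitin fusions and cpc2. Of 12 names listed, 10 were found as aliases. Of these 10, 8 had a coding intron and 5 had HomolD, namely rpp102, rpp103, rpp201, rpp203 and cpc2, the RACK1 protein bound to the 40S subunit. The ubiquitin fusions Ubi2 (alias uep1) and Ubi5 (SPAC589.10c), not found by their listed names and so not in the count, also had HomolD. The stalk anchor rpp0 had the longest 5′ UTR among them, 1115 bases.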

How the data were processed

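The authors made ChIP-seq libraries of H3K9me2 from 2 swi6Δ replicates. The values come from a deposited GFF annotation of the genome (other values: start and end positions in bases, no read counts), with aligner and peak caller not given in the sources used here. No column of per-sample values was left unused (0), and depth is unknown. From the 33835 feature lines, 5153 coding spans lie on chromosomes 1 to 3, and 32 pseudogenes were left out. Introns are gaps between coding parts, and UTR lengths are exonic bases outside the coding span. Sequences came from RefSeq ASM294v3. All 133 members and 4983 of 4988 other coding genes gave a whole reading frame. No table of RefSeq promoters or proteins was at hand, so windows were set at the deposited mRNA start and proteins were translated from the coding parts. Protein identity is per column of a global alignment (BLOSUM62, gap opening 10, extension 0.5). Centromere spans joined repeats at most 10 kb apart around the central core. Python 3.11.15, numpy 2.4.6, Biopython 1.88 and matplotlib 3.10.9 were used, and extraction was tested on simulated data. Members and lists were chosen with earlier results of these data known. Genes were named by a rule on copy number, extremes of length, UTR, intron and position, neighbouring pairs, and extremes of identity; other names illustrate counts and were picked after values were seen. No samples were compared. Values of some genes are not reported here.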

Additional observations from a re-analysis of the deposited data

How the results depend on the processing

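No paired analysis was possible because the deposited annotation holds no value of either replicate. Counting 1 gene per protein moved no share or median of members outside the 95% interval of the reported value (Wilson for shares, order statistics for medians, used only as a tolerance). Allowing 1 mismatch raised HomolD to 88.0% of members and 14.3% of other coding genes, and HomolE to 40.6% of members and 9.10% of other coding genes. With the 7 bases CAGTCAC, chosen after seeing the data, HomolD stood at 80.5% of members and 2.51% of other coding genes, and in the 300 bases before the start codon it stood at 63.9% of members. With the window set at the outermost annotated 5′ UTR base, also chosen after seeing the data, HomolD stood at 55.6% of members and 1.06% of other coding genes; this base lay beyond the mRNA line in 1 member and 79 other coding genes. The intron share of other coding genes was 50.5% among those that carry a name and 49.1% with UTR gaps included, against 51.1% and 52.6% of members. Median coding length of other coding genes was 1269 bases among named genes and 1200 bases with at least 100 codons, and their median 5′ UTR was 165 bases among named genes. Within 50 kb of a centromere or chromosome end lay 3.76% of members and 4.31% of other coding genes, and within 200 kb 18.8% of members and 18.2% of other coding genes. At each of these distances the member share was the higher one near a centromere and the lower one near a chromosome end. From mRNA span to mRNA span the next gene on the 5′ side was 334 bases from members and 348 bases from other coding genes. These medians were 314 and 517 bases where the next gene was divergent, and 345 and 243 bases where it was tandem. Intron gaps of 20 bases or more, also chosen after seeing the data, UTR spans with introns and UTRs of at least 10 bases stayed within the tolerance. Annotated UTR ends carry no error, so their precision is unknown.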

Other observations

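The L12 pair is the least diverged at the DNA level of the 16 pairs with identical proteins and the closest of the 19 pairs on 1 chromosome. rpl1201 and rpl1202 lie 63.3 kb apart on chromosome 3 and differ at 2 of 498 coding bases, but rpl1202 has a 95-base intron after 12 coding bases, which rpl1201 does not have. Their 5′ UTRs were 203 bases in rpl1202 and 58 bases in rpl1201. Both have an exact HomolD box close to the start codon, 65 bases before it in rpl1202 and 72 bases before it in rpl1201, and in rpl1202 this places the box 138 bases after the annotated mRNA start.

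Curated notes of conservation and of phosphorylation were also more frequent on members than elsewhere. A note of conservation in Archaea stood on 63 of 133 members (47.4%), against 163 of 4988 other coding genes (3.27%), and in Bacteria on 59 members (44.4%), against 18.4%. Of mitochondrial ribosomal protein genes, 1 of 31 was noted for Archaea (3.23%) and 18 of 31 for Bacteria (58.1%). Phosphorylation was noted for 49 members (36.8%), against 24.1% of other coding genes. An annotated noncoding RNA on the other strand overlapped the coding span of 11 members (8.27%), against 780 other coding genes (15.6%). In mitochondrial ribosomal protein genes it did so in 5 of 31 (16.1%). Member coding sequences are shorter, with a median of 450 bases against 1161 bases, and these shares were not compared at equal length.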
